A study of Mus musculus with 24 samples.

Results

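Adding regulatory T cells (Treg) to mesenchymal stromal cells (MSC) before implantation was described by comparing constructs of the group BCP+MSC+Treg with constructs of the group BCP+MSC. The members were chosen by their group alone, 4 constructs against 4, which is 8 of the 24 samples of the series. Each sample was bulk RNA from a whole construct of a separate mouse, collected 2 weeks after implantation, and holds RNA of the seeded cells together with that of all host cells that had entered. The series has 6 groups of 4 constructs. Besides the pair compared here, it includes granules without cells (BCP) and MSC primed with resolvin E1, a lipid mediator (BCP+MSC+RvE1), which are shown beside the results, and a pair of groups of toxin-treated mice that entered the statistical model only.

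Every construct held 40 mg of BCP, biphasic calcium phosphate, as granules of a ceramic that serves as a bone substitute. Hosts were Foxp3-DTR/eGFP mice, male and female, 8 to 9 weeks old, which carried the constructs in subcutaneous pockets of the back, with 2 constructs per mouse. In these mice Foxp3-expressing cells carry a green reporter and the receptor for diphtheria toxin, and no toxin was given to the groups described here, so all hosts kept their own Treg. Both groups carried 800000 bone marrow MSC at passage 2, whose donors were wild-type C57BL/6J mice aged 8 weeks. In BCP+MSC+Treg the MSC were mixed 1:1 with CD4+CD25+Foxp3+ cells from spleens of Foxp3 DTR/eGFP mice, which had been activated for 1 hour through CD3 and CD28, and both were cultured together for 36 hours before implantation. The graft and the host therefore both supplied Foxp3-expressing cells, and the counts do not tell them apart. The hour of the day at which constructs were collected is not given in the sources used here.

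Treg are CD4+ T cells that depend on the transcription factor Foxp3 and restrain other immune cells through cytokines, surface receptors and consumption of interleukin 2. MSC are stromal cells of the marrow that can give rise to bone-forming cells and that respond to inflammatory cytokines by making mediators of their own. An implanted ceramic draws neutrophils first and macrophages, giant cells, fibroblasts and vessels later, so a construct at this age is largely host tissue.

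The total counts of the 8 libraries ran from 10567666, in BCP+MSC+Treg replicate 4, to 79589926, with medians of 62194891 in BCP+MSC and 71610964 in BCP+MSC+Treg. A floor of 3 counts lay between 0.0377 and 0.284 CPM (read counts scaled to a common library total), and covers counting error only. A pair of libraries, BCP+MSC replicate 2 and BCP+MSC+Treg replicate 4, stood apart from the other 6. On the first principal component of 14634 genes of at least 1 CPM, which held 49.2% of the variance, they lay at -87.7 and -77.7, against -21.2 to 59.4 in the others. Their mean log2 CPM over 31 skeletal muscle genes was 2.93 and 6.22, against 8.03 to 8.95 in the others. By Xist and 4 Y-linked genes, 3 of the 4 BCP+MSC mice and 1 of the 4 BCP+MSC+Treg mice were female. The 8 libraries had Foxp3 at 0.356 to 1.48 CPM, so counts of the defining marker of the added cells were low in both groups. Exons of Foxp3 overlap those of Ccdc22 and Ppp1r3f on the opposite strand, and counting ignored strand.

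In the edgeR quasi-likelihood test over 30564 genes, 0 genes passed an adjusted p-value of 0.05, and the adjusted p-value was 1 for every gene. DESeq2 fitted to all samples also called 0 genes, and DESeq2 fitted to the 8 samples called 1, the immunoglobulin segment Igkv4-53. At an unadjusted p-value under 0.05, 830 genes passed at any size (2.72% of those tested). That is a smaller share than the 0.05 such a threshold passes on average when no gene differs. With a log2 fold change beyond 1 added, 378 genes were higher in BCP+MSC+Treg (1.24%) and 405 were lower (1.33%), together 2.56%. The median log2 fold change of all genes tested was -0.03. It was above 0 for 13915 of the 30564 genes, and for 6290 of the 14634 genes of at least 1 CPM. All single genes below are therefore described by their values, their unadjusted p-values and the overlap of the groups, and none is past a threshold that allows for the number of genes. In bulk RNA, fewer cells of a type and less RNA per cell cannot be told apart.

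The genes past the unadjusted threshold were for the most part barely expressed. The higher genes had a median of 0.0289 CPM over the 8 samples, and 34 of the 378 reached 1 CPM. They comprised 124 protein-coding genes, 78 pseudogenes, 56 long intergenic RNAs, 41 antisense RNAs and 14 immunoglobulin variable segments. The lower genes had a median of 0.0226 CPM, with 107 protein-coding genes, 81 pseudogenes and 14 of 405 at 1 CPM or above. Over all genes tested, every BCP+MSC+Treg sample lay above every BCP+MSC sample for 109 (0.357%) and below for 212 (0.694%). Among the genes of at least 1 CPM, all 4 BCP+MSC+Treg samples lay above all 4 BCP+MSC samples for 26 (0.178%) and below them for 56 (0.383%). If no gene differed, a share of 0.0286 would separate in 1 direction or the other on average. Fewer genes thus separated than chance alone gives, and the lack of overlap only describes the single genes below.

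A smaller set, defined after the values were seen, joined both criteria. In all, 19 genes of at least 1 CPM had an unadjusted p-value under 0.05 and groups that did not overlap, 7 with BCP+MSC+Treg above and 12 with it below, out of 51 (0.349%) and 43 (0.294%) of the 14634 genes of that level past that p-value in each direction. For any gene whose groups do not overlap, the exact two-sided permutation p is fixed at 0.0286, the smallest that 70 arrangements can give, so it is not repeated for single genes. Those above were Cry1, Igkv4-53, Grip2, Dnajb9, Herpud1, Hipk4 and Teddm2. Those below included Dbp, St6gal1, Shc4, Zik1, Tbc1d1, Fam83f, Rubcnl, Nr1d1, Mcm7, Tpcn1 and Arhgap28. Of these 19, Dbp, Nr1d1 and Cry1 belong to the circadian clock.

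The circadian clock is a loop of transcription factors that runs in nearly every cell. CLOCK and BMAL1 (gene Arntl) bind E-boxes and switch on the Per and Cry genes, whose proteins then repress them, while the nuclear receptors REV-ERBα (Nr1d1) and REV-ERBβ (Nr1d2) repress Arntl and DBP (Dbp) acts on D-boxes of output genes. Dbp, Nr1d1 and Nr1d2 are direct E-box targets with strong daily rhythms, and the peak of Cry1 follows theirs by several hours.

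Dbp (ENSMUSG00000059824.12, GRCm38 chromosome 7, 45705088 to 45710203) stood at 10.4, 9.74, 9.22 and 4.84 CPM in BCP+MSC replicates 1 to 4, and at 4.14, 3.59, 4.02 and 1.73 CPM in BCP+MSC+Treg. Every BCP+MSC+Treg sample lay below every BCP+MSC sample, and replicate 4 was the lowest in both groups. The means were 8.54 ± 2.51 and 3.37 ± 1.12 CPM (SD, n = 4 each), and the edgeR log2 fold change was -1.32 (SE 0.463, unadjusted p = 0.00868). Leaving out each sample in turn gave -1.52 to -1.12, with an unadjusted p under 0.05 in 8 of 8 fits. Without both libraries that stood apart it was -1.05, with an unadjusted p of 0.0588.

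Nr1d1 (chromosome 11, 98767932 to 98775333) stood at 44.2, 39.5, 40.6 and 47.1 CPM in BCP+MSC, and at 32.1, 20.4, 26.8 and 11.3 CPM in BCP+MSC+Treg. The groups did not overlap, and the 4 BCP+MSC samples lay close together. Its log2 fold change was -0.92 (SE 0.426, unadjusted p = 0.0426), and it passed in 2 of 8 fits that left out a sample. Without both libraries that stood apart it was -0.73 (unadjusted p = 0.143).

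Nr1d2 (chromosome 14, 18204054 to 18239127) stood at 18.6, 36.7, 27.7 and 29.2 CPM in BCP+MSC, and at 13.0, 20.8, 17.6 and 12.0 CPM in BCP+MSC+Treg. BCP+MSC replicate 1 lay below BCP+MSC+Treg replicate 2, so the groups overlapped by that pair. Its log2 fold change was -0.82 (SE 0.265, unadjusted p = 0.00486, exact permutation p = 0.0571), with 8 of 8 fits past 0.05 when a sample was left out and -0.55 (unadjusted p = 0.0733) without both libraries that stood apart.

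Cry1 (chromosome 10, 85131700 to 85185064), a repressor of CLOCK and BMAL1, went the other way. It stood at 7.91, 9.33, 7.12 and 15.4 CPM in BCP+MSC, and at 16.2, 15.6, 22.0 and 16.6 CPM in BCP+MSC+Treg. All BCP+MSC+Treg samples were above all BCP+MSC samples, though BCP+MSC replicate 4 came close to them. Its log2 fold change was 0.82 (SE 0.248, unadjusted p = 0.00283). It kept an unadjusted p under 0.05 in 8 of 8 fits that left out a sample, and was 0.82 (unadjusted p = 0.0105) without both libraries that stood apart. Dbp, Nr1d2 and Cry1 passed an unadjusted 0.05 in all 10 other alternatives, and Nr1d1 in 8 of 10.

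The rest of the loop did not pass the unadjusted threshold. Arntl had a log2 fold change of 0.05 (unadjusted p = 0.843) and Clock, its partner, -0.06 (unadjusted p = 0.766). Among the period genes, whose proteins repress that pair together with the cryptochromes, Per1 was at -0.27 (unadjusted p = 0.494), Per2 at 0.38 (unadjusted p = 0.144) and Per3 at -0.35 (unadjusted p = 0.266). Of the whole list of 22 glucocorticoid and circadian genes, which does not hold Cry1, 8 had a log2 fold change above 0, and the median was -0.08. At an unadjusted p under 0.05, 0 were higher and 3 were lower, against 1.29% and 1.42% of all genes. In a set of 6 other clock genes, added after values were seen, 3 were above 0, with 1 higher and 0 lower at that p-value. The glucocorticoid targets of the list of 22 did not pass. Fkbp5, a chaperone that dampens the receptor, was at -0.17 (unadjusted p = 0.571). Tsc22d3, which encodes the anti-inflammatory protein GILZ, was at 0.17 (unadjusted p = 0.59).

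Set beside the other groups, the order of the 3 lower genes and Cry1 was as follows. Dbp had a mean of 4.79 CPM in BCP constructs and one of 13.4 CPM under RvE1, the latter with replicate 1 at 35.5 CPM and the others at 4.70 to 7.04 CPM. The means of Nr1d1 in the same groups were 12.4 and 45.0 CPM, and those of Nr1d2 15.5 and 30.5 CPM. Cry1 had 22.7 and 11.0 CPM. The means of BCP+MSC and BCP+MSC+RvE1 were thus near each other for Nr1d1, Nr1d2 and Cry1, and BCP+MSC+Treg lay between them and BCP for Nr1d1 and Cry1. The contrast that follows reuses the BCP+MSC+Treg samples by which these genes were picked, so it gives no independent support. Against BCP+MSC+RvE1, with the same BCP+MSC+Treg samples, the log2 fold change was -1.98 for Dbp (unadjusted p = 0.000313), -0.99 for Nr1d1 (unadjusted p = 0.0301), -0.94 for Nr1d2 (unadjusted p = 0.00159) and 0.68 for Cry1 (unadjusted p = 0.0114), where 2.37% of genes passed an unadjusted 0.05 and 2.22% did so with a log2 fold change beyond 1, and each adjusted p was 1.

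**Figure D1:**
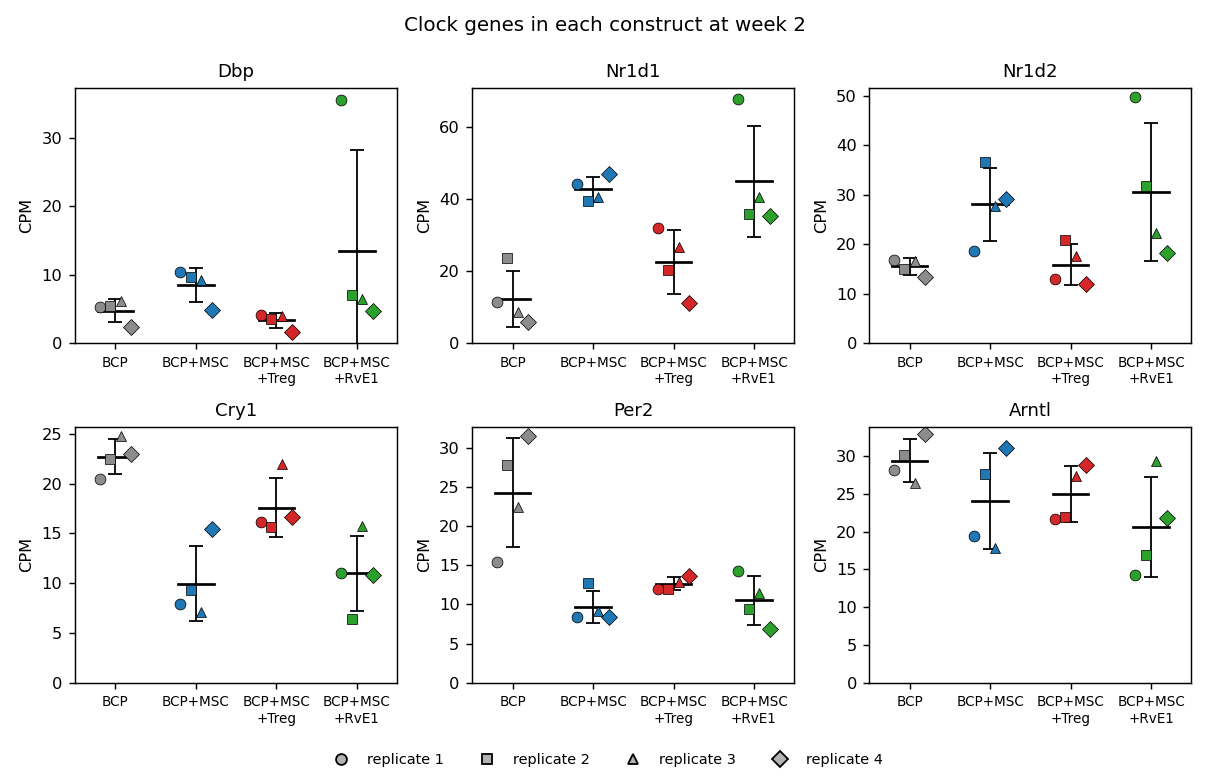
CPM of 6 clock genes in each construct of 4 groups, with 1 point per mouse and the mean ± SD as bars (bars that reach below 0 are cut there). For Dbp and Nr1d1 the 4 BCP+MSC+Treg points lie below the 4 BCP+MSC points, for Cry1 they lie above, and for Per2 and Arntl the groups overlap.

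The upstream sequences of Nr1d1, Nr1d2 and Cry1 are shown because these genes are clock targets and their log2 fold changes differed in sign. They are the 250 bases before the transcription start of RefSeq on GRCm38.p6, read on the coding strand, at chr11:98775378-98775627 (minus strand) for Nr1d1, chr14:18239107-18239356 (minus strand) for Nr1d2 and chr10:85185055-85185304 (minus strand) for Cry1. Capitals mark matches, on either strand, to the E-box CACGTG, the E-box variant AACGTG, the D-box TTATGTAA and AGGTCA, only a part of the REV-ERB element.
Nr1d1: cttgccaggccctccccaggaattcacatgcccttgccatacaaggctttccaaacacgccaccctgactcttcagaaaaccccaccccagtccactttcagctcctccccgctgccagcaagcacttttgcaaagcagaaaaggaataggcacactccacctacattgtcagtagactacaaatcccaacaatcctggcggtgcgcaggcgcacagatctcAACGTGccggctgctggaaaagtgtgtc
Nr1d2: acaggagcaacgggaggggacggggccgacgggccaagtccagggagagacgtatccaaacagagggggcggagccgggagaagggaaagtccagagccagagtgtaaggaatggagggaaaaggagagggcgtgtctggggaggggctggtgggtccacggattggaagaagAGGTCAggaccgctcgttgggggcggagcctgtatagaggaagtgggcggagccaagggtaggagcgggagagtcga
Cry1: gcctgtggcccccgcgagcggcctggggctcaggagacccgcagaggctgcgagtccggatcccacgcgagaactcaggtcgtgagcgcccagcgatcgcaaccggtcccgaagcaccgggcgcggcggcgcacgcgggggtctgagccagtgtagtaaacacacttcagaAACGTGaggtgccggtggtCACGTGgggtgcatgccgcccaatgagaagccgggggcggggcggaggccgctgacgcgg
Cry1 held 1 E-box, 60 bases before its start, and 1 E-box variant, 79 bases before it. Nr1d1 held 1 E-box variant 28 bases before its start, and Nr1d2 held 1 match to AGGTCA 77 bases before its start. The same search of Dbp covered chr7:45704997-45705246 (plus strand), much of which GENCODE counts as part of the gene, and found none of the 4 motifs. Among 32851 windows of the same length, 6.02% held the E-box, 3.85% the variant, 0.819% the D-box and 14% AGGTCA, and no match overlapped another. These are matches of letters only.

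Exons of Dbp overlap those of Sphk2 on the opposite strand, and exons of Nr1d1 overlap those of Thra. The recorded counting options ignored strand, so pairs from the shared stretches could not be given to the right gene. Cry1 and Nr1d2 had no exon overlap in the annotation.

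Neutrophil genes had the highest list median apart from 5 sex-linked genes, which served to check sex and had 1.28. Myogenic regulator genes came next at 0.77, with 13 of 15 above 0 and a range of 0.03 to 1.12 when a sample was left out. Neutrophils are short-lived phagocytes that store antimicrobial proteins in granules and arrive first at a wound or implant. Of 19 genes, 17 had a log2 fold change above 0, with a median of 0.83 against -0.03 for all genes. At an unadjusted p under 0.05, 2 were higher and 0 were lower, against 1.29% of all genes in the higher direction.

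S100a8, which with S100a9 makes calprotectin, the main cytosolic protein of neutrophils, stood at 69.6, 34.7, 56.4 and 36 CPM in BCP+MSC and at 139, 231, 111 and 36.3 CPM in BCP+MSC+Treg. The first 3 BCP+MSC+Treg samples were above every BCP+MSC sample, and replicate 4 lay among them. The log2 fold change was 1.40 (SE 0.603, unadjusted p = 0.0309, exact permutation p = 0.0857), and 1.58 (unadjusted p = 0.0273) without both libraries that stood apart.

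S100a9 showed the same split, with 141, 73.7, 116 and 91.0 CPM in BCP+MSC and 312, 524, 263 and 73.2 CPM in BCP+MSC+Treg. Its log2 fold change was 1.48 (SE 0.742, unadjusted p = 0.0606), and BCP+MSC+Treg replicate 4 was the lowest of the 8 samples.

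Cxcr2, the receptor through which neutrophils follow CXC chemokines, stood at 22.1, 22.2, 20.0 and 21.6 CPM in BCP+MSC and at 34.9, 46.7, 43.8 and 28.2 CPM in BCP+MSC+Treg. Here all 4 BCP+MSC+Treg samples, replicate 4 included, were above the narrow range of BCP+MSC. The log2 fold change was 0.84 (SE 0.570), with an unadjusted edgeR p of 0.156.

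Fpr2, a receptor for formylated peptides and for several lipid mediators, stood at 6.11, 6.52, 7.00 and 6.40 CPM against 13.1, 14.5, 13.7 and 6.41 CPM (log2 fold change 0.88, unadjusted p = 0.0861). Camp, the granule peptide cathelicidin, stood at 0.109, 0.0153, 0.199 and 0.356 CPM against 1.23, 2.06, 0.448 and 0.0822 CPM (log2 fold change 2.51, unadjusted p = 0.0267). In both genes the first 3 BCP+MSC+Treg samples were above all BCP+MSC samples and replicate 4 was not. The defining surface marker Ly6g was low, from 0 to 1.12 CPM over the 8 samples (log2 fold change 0.80, unadjusted p = 0.343), and Mmp8, the neutrophil collagenase, was at -0.32 (unadjusted p = 0.469).

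The mean log2 CPM over the list was 3.11, 3.40, 2.50 and 1.36 in BCP+MSC+Treg replicates 1 to 4, and 1.71 to 2.07 in BCP+MSC. The shallowest library, replicate 4, was thus the lowest of the 8 while the others were the 3 highest. Leaving out 1 sample at a time gave list medians of 0.65 to 0.97. Leaving out both libraries that stood apart gave 1.09, with 19 of 19 genes above 0. In that fit 2 passed the unadjusted threshold, both higher, against 1.98% of all genes in either direction. The same fit leaves out BCP+MSC+Treg replicate 4, the lowest of the 8, so a rise of the median follows from that choice and supports nothing. The list means were 3.04, 2.16, 1.95 and 2.42 in BCP+MSC+RvE1 and 1.13 to 2.45 in BCP, and the median of BCP+MSC+Treg against BCP+MSC+RvE1 was 0.35.

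Hdc, histidine decarboxylase, which makes histamine in mast cells, basophils and some neutrophils, stood at 45.5, 33.4, 46.3 and 53.3 CPM in BCP+MSC and at 78.1, 95.2, 105 and 47.7 CPM in BCP+MSC+Treg. Replicates 1 to 3 of BCP+MSC+Treg were above every BCP+MSC sample, and replicate 4 was within their range. Its log2 fold change of 0.87 (SE 0.323, unadjusted p = 0.0123, exact permutation p = 0.0571) kept an unadjusted p under 0.05 in 8 of 8 fits that left out a sample and in 10 of 10 other alternatives. It was 0.95 (unadjusted p = 0.0135) without both libraries that stood apart. The rest of the 14 mast cell genes did not pass, with a list median of -0.08, the proteases Cpa3 at -0.14 (unadjusted p = 0.777) and Mcpt4 at -0.13 (unadjusted p = 0.844), and the receptor Kit at -0.04 (unadjusted p = 0.932). Hdc had a mean of 78.6 CPM in BCP+MSC+RvE1, against 81.5 ± 25.2 CPM (SD, n = 4) in BCP+MSC+Treg.

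Tnf, Ccl3, Ccl4, Cxcl2 and Il1b, ligands that draw or activate such cells, did not pass the unadjusted threshold. Tnf, a cytokine that activates vessels and phagocytes, stood at 22.5, 18.6, 18.3 and 21.9 CPM in BCP+MSC and at 25.3, 35.7, 30.2 and 23.3 CPM in BCP+MSC+Treg. The groups did not overlap, though the log2 fold change of 0.50 had an unadjusted edgeR p of 0.18. Ccl3, a chemokine that draws monocytes and neutrophils, stood at 37.4, 34.5, 31.9 and 32.6 against 44.8, 76.1, 61.2 and 35.2 CPM (0.67, unadjusted p = 0.0787). Ccl4, a related chemokine, stood at 34.1, 13.2, 39.0 and 27.3 against 65.0, 112, 47.8 and 21.1 CPM (1.12, unadjusted p = 0.0963). For these 3 genes BCP+MSC+Treg replicate 4 was the lowest of its group, and replicate 2 the highest.

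Cxcl2, a ligand of CXCR2, stood at 57.7 to 78.9 CPM against 76.2 to 157 CPM (0.86, unadjusted p = 0.164), and Il1b at 61.5 to 111 against 72.9 to 196 CPM (0.86, unadjusted p = 0.325). Of 21 inflammatory cytokine genes 15 were above 0, with 0 past the unadjusted threshold and a median of 0.18. Of 19 CC chemokine genes 15 were above 0, with 0 past it and a median of 0.21. Both medians were at -0.02 with a covariate for sex-linked genes, and that of the CC chemokines was also at -0.02 without BCP+MSC replicate 2. Of 14 CXC chemokine genes 11 were above 0, and 1, Cxcl11, was higher at an unadjusted p under 0.05, against 1.29% of all genes. Their median was 0.32, which lay between 0.18 and 0.62 when a sample was left out.

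**Figure D2:**
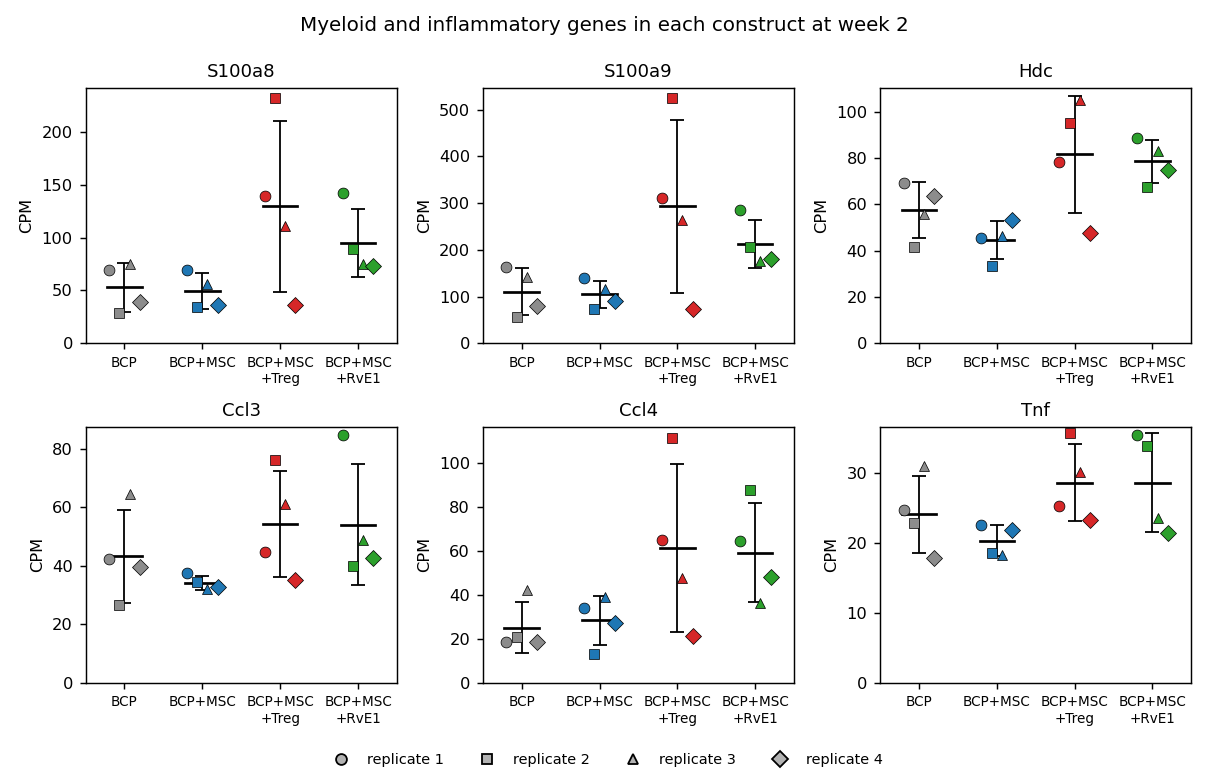
CPM of 6 myeloid and inflammatory genes in each construct of 4 groups, with 1 point per mouse and the mean ± SD as bars (bars that reach below 0 are cut there). In BCP+MSC+Treg, replicates 1 to 3 lie above the BCP+MSC points for S100a8, S100a9, Hdc and Ccl4, and replicate 4 lies among or below them.

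Genes of the response to interferon-γ were highest in 1 construct. Interferon-γ, made by T cells and natural killer cells, switches on guanylate-binding proteins, immunoproteasome subunits and the CXCR3 ligands Cxcl9, Cxcl10 and Cxcl11. Of 28 response genes 26 were above 0, with a median of 0.39. At an unadjusted p under 0.05, 1 was higher, against 1.29% of all genes in that direction. Cxcl11, that gene, stood at 0.0818, 0.168, 0.0497 and 0.134 CPM in BCP+MSC and at 0.460, 0.486, 0.210 and 0.164 CPM in BCP+MSC+Treg (log2 fold change 1.62, unadjusted p = 0.0289). Its level was low and the groups overlapped by 1 pair. The 0.164 CPM of BCP+MSC+Treg replicate 4 lay below the floor of that library, 0.284 CPM, and BCP+MSC replicates 1 and 3 were near their floors.

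Ifng, which encodes interferon-γ, stood at 0.0546, 0.198, 0.0497 and 0.134 CPM in BCP+MSC and at 0.998, 0.324, 0.112 and 0.164 CPM in BCP+MSC+Treg. The highest value was that of BCP+MSC+Treg replicate 1, and the groups overlapped. The log2 fold change of Ifng was 1.88 (SE 0.946, unadjusted p = 0.0586), from 0.86, without that replicate, to 2.32 when a sample was left out. It was 2.52 (unadjusted p = 0.0342) without both libraries that stood apart. Counts of Ifng were few. Its 0.164 CPM in BCP+MSC+Treg replicate 4 and 0.0546 CPM in BCP+MSC replicate 1 lay below the floors of those libraries, 0.284 and 0.0776 CPM. In BCP+MSC replicate 3 it was near the floor.

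The list's mean log2 CPM was 5.39 in BCP+MSC+Treg replicate 1 and 3.82 to 4.30 in the other 3, against 3.65 to 4.23 in BCP+MSC. Igtp, an interferon-induced GTPase, stood at 107 CPM in that replicate, at 21.9 to 31.1 CPM in the other 3, and at 25.5 to 30.6 CPM in BCP+MSC. Cxcl9 stood at 41.5 CPM there and at 2.80 to 5.72 CPM in the other 3, against 2.86 to 17.6 CPM in BCP+MSC. Without that construct the list median was -0.13, and over all fits that left out 1 sample it lay between -0.13 and 0.54. Without both libraries that stood apart it was 0.51. The type I interferon list had a median of -0.08, with 0 of 22 genes past the unadjusted threshold.

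T cell genes, including those of the added cells, did not separate the groups. Of 24 Treg signature genes 7 were above 0, with 0 past the unadjusted threshold in either direction and a median of -0.10. Il2ra, the interleukin 2 receptor chain used to sort the added cells, was at -0.28 (unadjusted p = 0.494), and Ctla4, a coinhibitory receptor, at -0.49 (unadjusted p = 0.318). Klrg1, an inhibitory receptor of mature Treg and effector cells, stood at 1.24 to 1.91 CPM in BCP+MSC and 0.904 to 1.18 CPM in BCP+MSC+Treg. It was the 1 member whose groups did not overlap, with BCP+MSC+Treg below (log2 fold change -0.54, unadjusted p = 0.223).

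Of 22 T cell receptor and coreceptor genes 9 were above 0 (median -0.04), with Cd3e at 1.54 to 3.82 CPM in BCP+MSC and 1.89 to 3.86 CPM in BCP+MSC+Treg. Of 23 cytotoxic and natural killer cell genes 17 were above 0 (median 0.12, 0 past the unadjusted threshold), and their median was -0.13 with the covariate for sex-linked genes. Of 16 B cell genes 2 were above 0 (median -0.39, 0 past it), with BCP+MSC replicate 3 the highest of the 8 samples in the list mean at 2.71. The B cell median lay between -0.67 and -0.13 when a sample was left out.

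Macrophage genes, which mark the phagocytes that dominate the later tissue around a ceramic, had a median of -0.03 (9 of 22 above 0, 0 past the unadjusted threshold). Their list mean was 8.35 ± 0.193 in BCP+MSC+Treg and 8.35 ± 0.206 in BCP+MSC (SD, n = 4 each). The osteoclast and giant cell genes had a median of -0.19 (4 of 17 above 0), and the alternatively activated macrophage genes -0.06 (6 of 18 above 0).

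Igkv4-53, an immunoglobulin kappa variable segment (chromosome 6, 69648824 to 69649363), had the largest size among the 19 separated genes. It stood at 0.136, 0.168, 0.480 and 1.08 CPM in BCP+MSC and at 10.9, 3.69, 12.1 and 13.8 CPM in BCP+MSC+Treg. The log2 fold change was 4.40 (SE 1.56, unadjusted p = 0.0107), with 8 of 8 fits past 0.05 when a sample was left out and 3.93 (unadjusted p = 0.0479) without both libraries that stood apart. It was the 1 gene that DESeq2 on the 8 samples called, at an adjusted p of 2.22e-07. Single constructs of other groups reached the same level, 13.6 CPM in BCP replicate 3 and 11.5 CPM in BCP+MSC+RvE1 replicate 3. The segment has close relatives in its family, between which read pairs can be split or lost. The constant genes and plasma cell genes as a list were at 11 of 20 above 0, with a median of 0.01 and 0 past the unadjusted threshold.

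Of the other separated genes, Dnajb9 and Herpud1 belong to the unfolded protein response of the endoplasmic reticulum. Dnajb9, a co-chaperone of BiP, stood at 24.9, 25.7, 37.5 and 37.7 CPM in BCP+MSC and at 45.2, 54.3, 41.8 and 38 CPM in BCP+MSC+Treg (log2 fold change 0.51, SE 0.201, unadjusted p = 0.0179). Herpud1, which takes part in degradation of misfolded proteins, stood at 59.9, 47.0, 72.1 and 62.4 against 96.8, 91.9, 80.5 and 79.5 CPM (0.53, SE 0.231, unadjusted p = 0.03). The groups did not overlap for either gene, though BCP+MSC replicates 3 and 4 came close to BCP+MSC+Treg replicate 4 for Dnajb9. A set of 15 genes of that response was written down after these values had been seen, so its counts support nothing. Of these 15, 14 were above 0, with a median of 0.22. They included Hspa5, which encodes BiP, at 0.32 (unadjusted p = 0.229), and Manf at 0.47 (unadjusted p = 0.269).

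Grip2, a scaffold protein of glutamate receptors, stood at 3.96, 1.72, 3.79 and 3.62 CPM in BCP+MSC and at 4.51, 10.8, 6.36 and 6.41 CPM in BCP+MSC+Treg. Its log2 fold change was 1.10 (SE 0.409, unadjusted p = 0.0125), and its lowest sample, BCP+MSC replicate 2, was also the library with the least muscle RNA. Teddm2 stood at 0.290 to 1.08 against 1.29 to 1.90 CPM (1.06, unadjusted p = 0.0499), and passed in 1 of 8 fits that left out a sample. Its exons overlap those of Glul on the opposite strand. St6gal1, which adds sialic acid to glycoproteins, stood at 53.4, 53.7, 73.3 and 54.3 CPM against 36.5, 47.3, 42.5 and 39.4 CPM (-0.50, SE 0.185, unadjusted p = 0.0119). All of its BCP+MSC+Treg samples lay below BCP+MSC, and it passed in 7 of 8 such fits and, without both libraries that stood apart, at unadjusted p = 0.0297.

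The genes of the cell cycle list all had lower estimates in BCP+MSC+Treg, and none passed. Of 24 genes 0 had a log2 fold change above 0, the median was -0.37 and the range -0.58 to -0.05, with 0 past the unadjusted threshold. Mki67, the proliferation antigen, stood at 51.6, 72.7, 51.0 and 37.3 CPM in BCP+MSC and at 24.3, 41.6, 35.4 and 58.2 CPM in BCP+MSC+Treg (-0.42, unadjusted p = 0.255). BCP+MSC replicate 2 was the highest and BCP+MSC+Treg replicate 1 the lowest, and the groups overlapped through BCP+MSC+Treg replicates 2 and 4. Mcm5, a subunit of the replicative helicase, stood at 19.9 to 30.7 against 18.3 to 20.3 CPM (-0.48, unadjusted p = 0.102).

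Mcm7, another subunit of that helicase and no member of the list, was among the separated genes. It stood at 36.9, 33.7, 26.6 and 27.3 CPM in BCP+MSC and at 26.4, 21.6, 25.2 and 17.9 CPM in BCP+MSC+Treg (-0.45, SE 0.216, unadjusted p = 0.0483). BCP+MSC replicate 3 and BCP+MSC+Treg replicate 1 all but met, and its exons overlap those of Cops6 and Ap4m1 on the opposite strand. It belongs to a set of 7 replication and repair genes that were picked after their values had been seen, so that their counts support nothing. Of these 7, 0 were above 0, with a median of -0.60. At an unadjusted p under 0.05, 4 were lower, against 1.42% of all genes in that direction. The median of the cell cycle list lay between -0.51 and -0.23 when a sample was left out, was -0.64 with a covariate for sex-linked genes, and was -0.27, with 1 of 24 above 0, without both libraries that stood apart. The list means of BCP and BCP+MSC+RvE1, 3.73 ± 0.273 and 3.60 ± 0.395 (SD, n = 4), were near the 3.69 ± 0.249 of BCP+MSC+Treg, against 4.04 ± 0.273 in BCP+MSC.

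Matrix genes leaned the same way. Of 24 fibrillar collagen and matrix genes 1, Dcn, was above 0 (0.01, unadjusted p = 0.981), with a median of -0.36 and 0 past the unadjusted threshold. Col1a1, the chain of type I collagen shared by bone and scar, stood at 6805, 10072, 5277 and 6440 CPM in BCP+MSC and at 2404, 3436, 5643 and 10559 CPM in BCP+MSC+Treg (-0.38, unadjusted p = 0.399). Among the 8, BCP+MSC+Treg replicate 4, a library low in muscle RNA, was the highest, and BCP+MSC replicate 2, also low in muscle RNA, came next. Tenascin C (Tnc), a matrix protein of healing tissue, stood at 421, 1096, 273 and 262 against 128, 230, 328 and 468 CPM (-0.83, unadjusted p = 0.104). The list median was -0.04 without BCP+MSC replicate 2, -0.60 without BCP+MSC+Treg replicate 4 and -0.33 without both.

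Of 22 osteoblast and mineral matrix genes 2 were higher and 2 lower at an unadjusted p under 0.05, with 9 above 0, against 1.29% and 1.42% of all genes in each direction. Scrg1, a small secreted protein of cartilage and stromal cells, stood at 0.0818, 0.0763, 0 and 0.0446 CPM in BCP+MSC and at 0.473, 0.130, 0.238 and 0.329 CPM in BCP+MSC+Treg (2.50, SE 1.02, unadjusted p = 0.0218). Its groups did not overlap, and it passed in 6 of 8 fits that left out a sample and in 10 of 10 other alternatives. It was 2.77 (unadjusted p = 0.0346) without both libraries that stood apart. Scrg1 in BCP+MSC was at 0 or near the floor of 3 counts. Its 0.329 CPM in BCP+MSC+Treg replicate 4 was also near the floor of that library, 0.284 CPM. Ibsp, bone sialoprotein, stood at 0.546, 0.305, 0.497 and 15.4 CPM in BCP+MSC and at 0.171, 0.0971, 0.392 and 0.904 CPM in BCP+MSC+Treg (-3.59, SE 1.20, unadjusted p = 0.00697). BCP+MSC replicate 4 was the single high sample, and without it the log2 fold change was -0.34 (unadjusted p = 0.708). Phex, an endopeptidase of osteoblasts and osteocytes, stood at 0.0273, 0.0153, 0.0497 and 0.0594 CPM in BCP+MSC and at 0.105, 0.275, 0.238 and 0.164 CPM in BCP+MSC+Treg (2.30, SE 0.973, unadjusted p = 0.0266). Mepe, a matrix phosphoglycoprotein of osteocytes, was at 0 in all 4 BCP+MSC+Treg constructs and in 2 of BCP+MSC, with 0.0273 and 0.134 CPM in the other 2. The groups did not overlap for Phex, but its levels in BCP+MSC were near or below the floor of 3 counts. Its 0.164 CPM in BCP+MSC+Treg replicate 4 also lay below the floor of that library, 0.284 CPM.

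**Figure D3:**
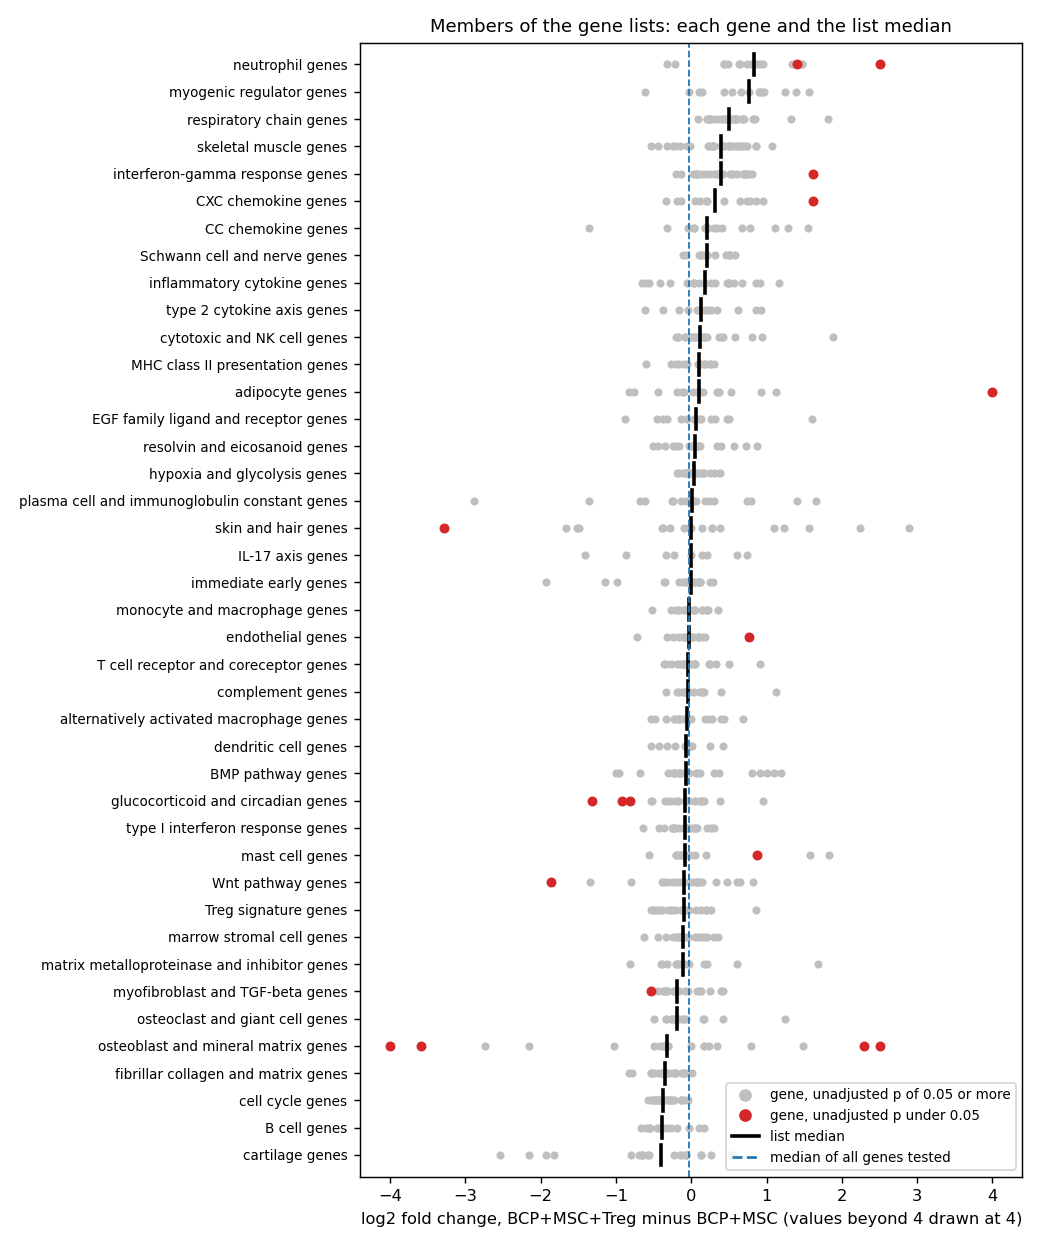
Log2 fold change of BCP+MSC+Treg against BCP+MSC (x axis) for the members of the gene lists other than the sex-linked genes (rows), as a point per gene, with the list median as a black bar and the median of all genes tested, -0.03, as a dashed line. Neutrophil genes have the highest median of the lists drawn, 0.83, and few members of any list, drawn in red, have an unadjusted p under 0.05.

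The means of the respiratory chain and skeletal muscle lists were lowest, within each group, in the library that stood apart. All 28 respiratory chain genes had a log2 fold change above 0, with a median of 0.50 and 0 past the unadjusted threshold. Their mean log2 CPM was 8.48, 7.75, 7.57 and 5.96 in BCP+MSC+Treg and 7.39, 5.80, 7.31 and 7.41 in BCP+MSC. In each group the lowest value was that of the library low in muscle RNA, and the other 3 BCP+MSC+Treg constructs were above all BCP+MSC constructs. The median was 0.08 without BCP+MSC+Treg replicate 1, the sample that carried brown fat genes, and up to 0.81 without replicate 4. It was 0.56 without both libraries that stood apart. In that fit 4 of 28 genes passed the unadjusted threshold, all higher, against 1.98% of all genes in either direction. Cox8b and Cox7a1, the subunits of cytochrome oxidase found in muscle and brown fat, stood at 371 and 163 CPM in BCP+MSC+Treg replicate 1, against at most 108 and 99.4 CPM in the other 7 samples.

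Of 31 skeletal muscle genes 23 were above 0 (median 0.39, 0 past the unadjusted threshold), and the median lay between -0.01, without BCP+MSC replicate 2, and 0.86. Acta1, the actin of skeletal muscle, stood at 5545, 91.5, 3459 and 6217 CPM in BCP+MSC and at 5061, 5830, 6803 and 1014 CPM in BCP+MSC+Treg (0.29, unadjusted p = 0.707). Whether the muscle carried with a construct had a part in the list results was not tested beyond the covariate for muscle genes and the fits without those libraries.

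**Figure D4:**
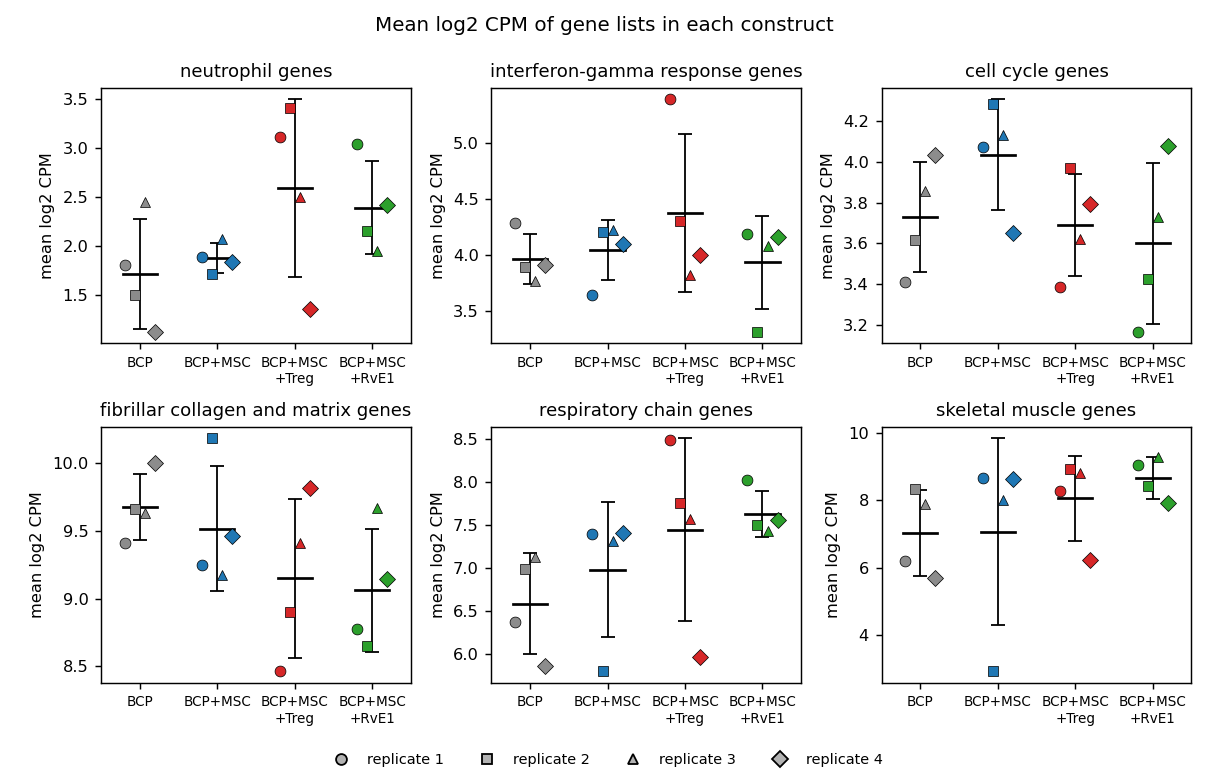
Mean log2 CPM of 6 gene lists in each construct of 4 groups, with 1 point per mouse and the mean ± SD as bars. BCP+MSC replicate 2 and BCP+MSC+Treg replicate 4 are the lowest of their groups for respiratory chain and skeletal muscle genes, and BCP+MSC+Treg replicate 1 is the highest point for the interferon-γ response.

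Several of the largest log2 fold changes came from 1 construct each, and these genes were picked after their values had been seen. BCP+MSC+Treg replicate 1 carried genes of brown fat, the heat-producing fat depot. Ucp1, the uncoupling protein that defines it, stood at 225 CPM there and at 0.0486 to 0.247 CPM in the other 3, against 0.0297 to 0.430 CPM in BCP+MSC (log2 fold change 8.06, unadjusted p = 0.00368, exact permutation p = 0.629). Cidea, a lipid droplet protein, stood at 331 CPM there and at 0.0822 to 1.44 CPM in the other 3, against 0.382 to 1.51 CPM in BCP+MSC (6.14, unadjusted p = 0.0116). Elovl3, a fatty acid elongase, and Otop1, a proton channel, stood at 10.7 and 18.2 CPM there and under 1 CPM in the other 7. Each of these 4 genes passed the unadjusted edgeR threshold on 1 animal, and without it their log2 fold changes were between -0.99 and -0.33. Prdm16 (0.32, unadjusted p = 0.326) and Ppargc1a (0.43, unadjusted p = 0.392), regulators of that fat, did not pass.

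In the same construct Areg, an EGF receptor ligand that Treg can make in injured tissue, was at 21.3 CPM, against 0.164 to 2.43 CPM in the other 3 and 0.594 to 8.70 CPM in BCP+MSC (0.48, unadjusted p = 0.747). A second construct, BCP+MSC+Treg replicate 2, carried Hdac11, a histone deacetylase, at 218 CPM, against 1.73 to 7.79 CPM in the other 3 and 3.1 to 4.85 CPM in BCP+MSC (3.87, unadjusted p = 0.00337). It also carried Cradd, a death-domain adaptor, at 134 CPM, against 6.53 to 11.6 and 5.37 to 10.6 CPM (2.23, unadjusted p = 0.00445). Without that construct the log2 fold changes of Hdac11 and Cradd were 0.22 and 0.05.

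**Figure D5:**
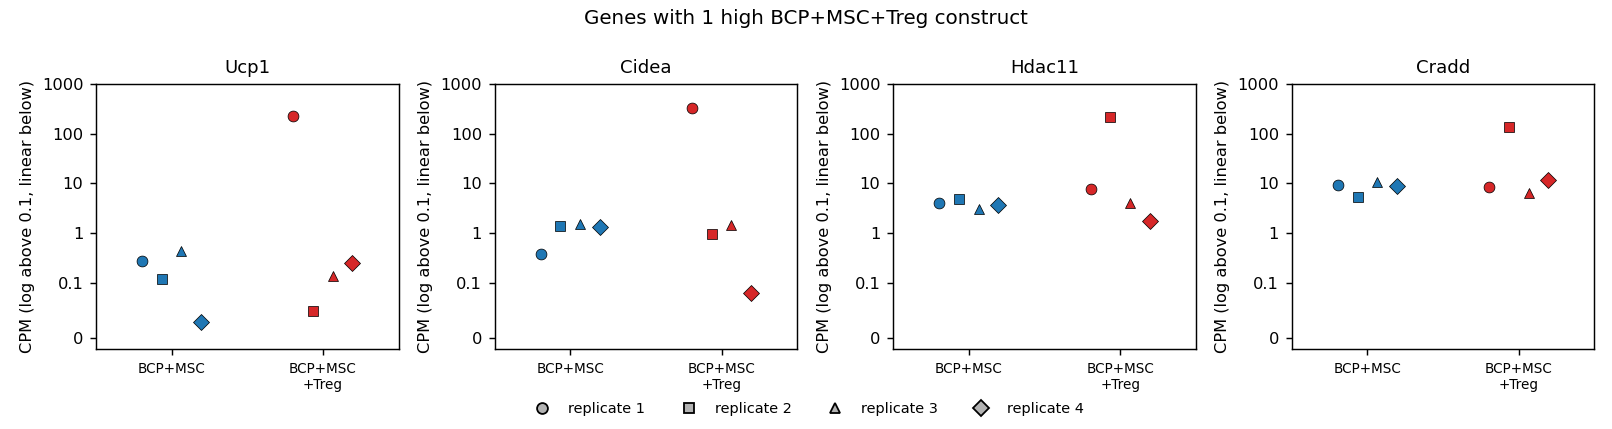
CPM of 4 genes in each construct of the 2 groups compared, with 1 point per mouse, on an axis that is logarithmic above 0.1 and linear below. BCP+MSC+Treg replicate 1 is alone at 225 CPM for Ucp1 and 331 CPM for Cidea, and replicate 2 is alone at 218 CPM for Hdac11 and 134 CPM for Cradd.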

How the data were processed

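Bulk RNA of whole constructs was sequenced by the authors as paired ends from stranded mRNA libraries. The deposited values are raw counts of read pairs per gene for 51138 genes. Per the methods and the submitters' processing notes they were made with HISAT2 2.0.5 and featureCounts 1.5.2 on GENCODE release 13 (mouse, GRCm38), and DESeq2 1.42.0 was named for testing. Strand was not among the counting options recorded in the file, so overlapping genes on opposite strands lose or share pairs, and close copies lose pairs with several alignments. The deposited gene length column was not used in any value.

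Counts of all 24 samples were fitted with the quasi-likelihood test of edgeR 4.0.16 (R 4.3.3), with TMM normalization, robust dispersions, 1 mean for each of the 6 groups and no covariate. Genes with at least 10 counts in total were kept, 30564 of 39183 with any count. Benjamini-Hochberg adjustment ran over every gene tested. The study's methods name DESeq2, which is an alternative here. Sample values are TMM-scaled CPM, log2 CPM used a prior count of 2, and fold changes are model estimates. For single genes, exact permutation tests (two-sided, 70 arrangements) were run as well. Intervals of depth and the floor of 3 counts cover counting error only. The labels number biological replicates, and the study's methods say that each came from a separate animal. Symbols, positions and exon overlaps came from GENCODE release 21 on GRCm38, and upstream sequences from RefSeq on GRCm38.p6.

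The comparison, the gene lists and the tests were chosen with earlier results of these data known. A rule named up to 12 genes per direction of at least 1 CPM. These had an unadjusted p under 0.05, a log2 fold change beyond 1 and groups that did not overlap. It also took the most abundant member of each of 42 lists, and up to 2 members per list and direction past the unadjusted threshold. Genes that the study names for this group were included. Other list members given with values, such as Cxcr2, Fpr2, Igtp, Cxcl9, Tnc and Mki67, were chosen outside this rule as examples. Lists are described by counts and medians, without a test. The 19 separated genes, the lists of brown fat, endoplasmic reticulum stress, replication and other clock genes, and the genes with 1 high construct were added after values were seen. Alternatives were DESeq2 on all samples and on the 8 samples, edgeR on the 8 samples without and with the replicate number as a block, RLE factors, the filterByExpr filter, no filter, covariates for sex-linked, muscle and skin genes, a prior count of 0.5, each sample left out in turn and, chosen after seeing the data, both libraries that stood apart left out.

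The fit was tested on simulated counts before use. Tables and figures were made in Python 3.11.15 with numpy 2.4.6, pandas 2.3.3 and matplotlib 3.10.9. Flow cytometry, protein and histology data were not used here. The name of 1 of the 19 separated genes is not reported here.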

Additional observations from a re-analysis of the deposited data

Results flagged for a closer look

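Within groups of 4, 27 of 288 tests of a gene or list marked a sample far from the other 3. Chance alone marks about 1 in 20 such groups, but that rate cannot be set against this count. Ucp1, Otop1 and Zrsr1 had been picked because 1 construct was high, and several entries, such as Acta1 and the mean of the muscle genes, are related. Values here are log2 CPM unless said otherwise. BCP+MSC replicate 2 was the sample in question for 12 of them. It was low for Grip2 at 0.82, Ccl5, a chemokine of T cells, at 2.48, Tpm2 at 6.90 and Acta1 at 6.52, and for the means of the T cell receptor genes at 1.70, the MHC class II genes at 6.07, the skeletal muscle genes at 2.93 and the respiratory chain genes at 5.80. It was high for the ligand Wnt16 at 2.59, Tbc1d1 at 5.96, Arhgap28 at 3.95 and the hair keratin Krt27 at -3.15, the last from 0.0763 CPM where the other 3 were at 0.

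In the other group, BCP+MSC+Treg replicate 4, the second library that stood apart, was low for Dbp at 0.82, Tpm2 at 8.59, Acta1 at 9.99 and Hipk4 at 0.43. Among the others, BCP+MSC+Treg replicate 1 was high for Ucp1 at 7.82 and Otop1 at 4.19 and low for the macrophage elastase Mmp12 at 11.36. BCP+MSC+Treg replicate 2 was high for Zrsr1 at 5.97 and for the mean of the immediate early genes at 5.66, and replicate 3 for cathepsin K (Ctsk) at 10.53.

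BCP+MSC replicate 4 was low for Dbp at 2.29 and high for Ibsp, bone sialoprotein, at 3.95, which is 15.4 CPM against 0.305 to 0.546 CPM in the other 3. BCP+MSC replicate 1 was low for Cidea at -1.26 and Vegfa at 6.65, and replicate 3 was high for St6gal1 at 6.20.

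For 11 named genes the effect of Treg differed from that of resolvin E1, both taken against BCP+MSC, at an unadjusted p under 0.05 in the edgeR contrast of BCP+MSC+Treg and BCP+MSC+RvE1. The adjusted p was 1 for each, and 2.37% of all genes passed the unadjusted threshold. The 11 are out of 104 genes named by the rule or added after values were seen. Many of these were named for their values in these same BCP+MSC+Treg samples, so the count of 11 supports nothing. The differences of log2 fold changes were -1.98 for Dbp (unadjusted p = 0.000313), -0.94 for Nr1d2 (unadjusted p = 0.00159), -0.99 for Nr1d1 (unadjusted p = 0.0301) and 0.68 for Cry1 (unadjusted p = 0.0114). They were 0.99 for Grip2 (unadjusted p = 0.0223), -0.59 for Fam83f (unadjusted p = 0.0339) and -3.03 for Ibsp (unadjusted p = 0.018). For genes high in 1 construct they were 7.34 for Ucp1 (unadjusted p = 0.00547), 5.34 for Elovl3 (unadjusted p = 0.00542), 3.55 for Hdac11 (unadjusted p = 0.00563) and 2.47 for Cradd (unadjusted p = 0.00218).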

How the results depend on the processing

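The number of genes at an unadjusted p under 0.05 and a log2 fold change beyond 1, 378 higher and 405 lower, was 207 and 135 with DESeq2 on all samples, 191 and 155 with DESeq2 on the 8 samples, 221 and 175 with edgeR on the 8 samples, and 105 and 77 under the filterByExpr filter, which tests fewer genes. With both libraries that stood apart left out, an alternative chosen after seeing the data, it was 298 and 254. Leaving out 1 sample at a time gave 285 to 491 higher and 269 to 454 lower genes, the 269 without BCP+MSC+Treg replicate 2. The count past the adjusted threshold was 0 in every alternative except DESeq2 on the 8 samples, where it was 1. A fit with a replicate block on the 8 samples gave 57 and 38 genes. The numbers do not pair the samples: the deviations of samples with numbers 1 to 4 correlated at 0.14, -0.50, -0.42 and 0.09. The median of all genes lay between -0.05 and 0.01 over the alternatives. Among the 104 genes named by the rule or added later, 39 were past the unadjusted threshold. Of these 4 turned sign when a sample was left out, all without BCP+MSC+Treg replicate 1, and of 65 not past it 34 did. Over the fits that left samples out the 4 ran from -0.33 to 6.64 for Cidea, -0.76 to 8.75 for Ucp1, -0.66 to 5.58 for Elovl3 and -0.99 to 5.58 for Otop1, with the low end in each case without that replicate. The cause of the other shifts was not tested. The floor of the shallowest library, 0.284 CPM, lay above the median level of the genes past the unadjusted threshold.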
